A study of Homo sapiens with 2 samples.

Results

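The genes that build cholesterol, sense it and move it inside the cell were described in cultured Ewing sarcoma cells. The group was a list of 30 named genes out of the 33538 counted, named for their place in the pathway, with earlier results of these data known: 7 enzymes of the mevalonate part of cholesterol synthesis, 11 enzymes of the sterol part, 4 regulators built around the SREBP transcription factors, 4 proteins of cholesterol transport, and 4 fatty acid enzymes under the same regulators. All 30 were found in both libraries by their symbols. Single-cell transcriptomes came from CHLA9 and TC71, established cell lines of Ewing sarcoma, a bone and soft tissue tumour driven by a fusion transcription factor, with 1 droplet library of 3′ transcript ends for each line. CHLA9 was kept in IMDM with 20% heat-inactivated fetal bovine serum plus insulin, transferrin and selenite, and TC71 in RPMI with 10% fetal bovine serum. Reads of CHLA9 came from a HiSeq and a NovaSeq instrument and those of TC71 from the HiSeq alone, so that line, medium, serum and sequencing cannot be told apart, and with 1 library per line there were no replicates.

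Cells make cholesterol from acetyl-CoA in a long chain of reactions: the mevalonate part joins small units into farnesyl diphosphate, and the sterol part joins farnesyl groups into squalene, closes the rings and trims them to cholesterol. When sterols in the endoplasmic reticulum run low, SCAP escorts the SREBP factors to the Golgi, where they are cleaved and freed to switch on the genes of synthesis and uptake; when sterols are plentiful, INSIG proteins hold SCAP back. Cells in serum can also take up lipoprotein cholesterol, which the lysosomal proteins NPC1 and NPC2 pass on to other membranes.

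Of 5077 CHLA9 barcodes with 178489774 unique molecular identifiers (UMIs), 4524 were kept as cells, with 5000 UMIs and 2000 genes or more and no more than 15% of UMIs from mitochondrial genes. These cells held 174975302 UMIs, with a median of 34656 UMIs and 6532 genes per cell. Of 8468 TC71 barcodes with 75408445 UMIs, 1729 passed, with 58355173 UMIs and a median of 33370 UMIs and 6047 genes. Most barcodes left out of TC71, 5869, had under 5000 UMIs. The median mitochondrial share was 7.59% in CHLA9 and 9.05% in TC71, and ribosomal protein genes took 17.0% and 19.9% of the UMIs. The libraries shared 16 barcodes, 3 of them among kept cells. Free RNA was not measured, and probable doublets were kept. Levels are summed UMIs of a line, scaled to counts per 1000000 UMIs (CPM); since 3′ ends were counted, they were compared between genes with no scaling for length. Intervals (95%, exact) cover counting error only.

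Ewing sarcoma markers were present in both lines: all 7 of the list were detected, with a summed level of 3044 CPM in CHLA9 and 2069 in TC71, most of it CCND1 (2511 and 1451 CPM). Markers of epithelial cells summed to 0.0514 and 1.27 CPM with EPCAM leading and KRT5 at 0, those of endothelial cells to 0.223 and 0.0685 CPM with CDH5 leading and VWF at 0. Liver and fat cells, which make and store much lipid, left as little trace: hepatocyte markers summed to 0.640 and 1.68 CPM, led by APOA1 and with TTR at 0, and adipocyte markers to 0.0914 and 0.274 CPM, led in CHLA9 by LEP and in TC71 by PLIN1 and with ADIPOQ at 0 in both. A count of 0 allows up to 0.0171 CPM in CHLA9 and 0.0514 in TC71. Immune markers summed to 10.3 and 10.2 CPM, nearly all of it CD79A (10.1 in both), and CD3D was at 0. Fibroblast markers differed between the lines: all 5 were detected in each, with a sum of 278 CPM in CHLA9, led by COL1A2 at 203, and 14.4 in TC71, led by COL1A1 at 10.2 while COL1A2 had 2 UMIs. Their part in the differences between the lines was not tested.

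SREBP factors bind sterol regulatory elements near the start of their target genes, often beside sites for the factors NF-Y (which binds CCAAT boxes) and SP1. Promoter windows from RefSeq (GRCh38.p14, 300 bases around a transcript start) were available for 26 of the 30 genes, with no entry for ACAT2, FDFT1, SQLE and FASN. Shown are 7 windows of genes chosen after their values were seen: HMGCS1, IDI1 and MSMO1, whose levels went with those of the other enzymes across the cells of both lines; the regulator INSIG1, which did so in CHLA9; SREBF2, with the strictest sterol element; and PMVK and EBP, which stayed nearly flat in TC71. Each runs 5′ to 3′ along the gene's own strand, and capitals mark CCAAT boxes (ATTGG on the other strand) and letters of the sterol regulatory element.
HMGCS1: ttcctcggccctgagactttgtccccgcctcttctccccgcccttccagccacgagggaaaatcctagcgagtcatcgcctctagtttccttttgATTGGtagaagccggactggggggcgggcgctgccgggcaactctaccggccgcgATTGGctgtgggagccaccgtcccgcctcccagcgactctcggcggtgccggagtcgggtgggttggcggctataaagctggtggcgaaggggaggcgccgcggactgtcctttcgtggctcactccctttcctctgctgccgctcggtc
IDI1: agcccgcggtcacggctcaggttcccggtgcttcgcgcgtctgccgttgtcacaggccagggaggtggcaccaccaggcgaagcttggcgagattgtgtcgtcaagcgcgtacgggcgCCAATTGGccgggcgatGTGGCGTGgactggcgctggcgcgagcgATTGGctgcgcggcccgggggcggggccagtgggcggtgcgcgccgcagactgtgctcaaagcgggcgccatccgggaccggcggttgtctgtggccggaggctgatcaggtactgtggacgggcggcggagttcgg
MSMO1: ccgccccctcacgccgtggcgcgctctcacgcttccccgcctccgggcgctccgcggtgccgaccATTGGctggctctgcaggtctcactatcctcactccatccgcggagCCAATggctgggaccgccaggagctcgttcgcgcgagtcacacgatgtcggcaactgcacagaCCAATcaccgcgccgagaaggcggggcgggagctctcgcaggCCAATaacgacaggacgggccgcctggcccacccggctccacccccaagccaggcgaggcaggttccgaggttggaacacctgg
INSIG1: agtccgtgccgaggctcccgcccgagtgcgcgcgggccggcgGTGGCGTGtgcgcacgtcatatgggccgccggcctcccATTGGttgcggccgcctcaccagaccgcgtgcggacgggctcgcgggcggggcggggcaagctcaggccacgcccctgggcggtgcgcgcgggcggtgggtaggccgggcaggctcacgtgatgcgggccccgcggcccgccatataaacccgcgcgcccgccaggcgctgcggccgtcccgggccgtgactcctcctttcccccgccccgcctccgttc
SREBF2: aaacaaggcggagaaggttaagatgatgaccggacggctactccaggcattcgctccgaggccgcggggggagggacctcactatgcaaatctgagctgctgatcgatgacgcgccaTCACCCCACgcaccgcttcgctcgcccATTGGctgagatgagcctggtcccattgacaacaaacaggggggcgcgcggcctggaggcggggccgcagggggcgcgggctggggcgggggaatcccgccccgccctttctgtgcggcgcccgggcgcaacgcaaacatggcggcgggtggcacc
PMVK: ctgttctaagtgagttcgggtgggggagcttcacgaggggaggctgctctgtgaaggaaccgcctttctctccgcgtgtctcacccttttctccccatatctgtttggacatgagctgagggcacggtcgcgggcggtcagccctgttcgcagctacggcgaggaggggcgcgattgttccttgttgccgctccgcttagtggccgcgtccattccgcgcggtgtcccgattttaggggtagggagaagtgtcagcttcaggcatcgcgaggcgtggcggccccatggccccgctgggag
EBP: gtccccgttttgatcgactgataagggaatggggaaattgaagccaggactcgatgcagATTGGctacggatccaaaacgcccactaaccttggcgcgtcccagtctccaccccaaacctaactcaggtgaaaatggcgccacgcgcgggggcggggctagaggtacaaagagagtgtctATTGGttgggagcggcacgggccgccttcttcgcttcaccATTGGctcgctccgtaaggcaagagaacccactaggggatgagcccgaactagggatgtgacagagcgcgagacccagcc
Coordinates are chr5:43313363-43313662 (minus strand) for HMGCS1, chr10:1048837-1049136 (minus strand) for IDI1, chr4:165327419-165327718 (plus strand) for MSMO1, chr7:155297628-155297927 (plus strand) for INSIG1, chr22:41832855-41833154 (plus strand) for SREBF2, chr1:154936670-154936969 (minus strand) for PMVK and chrX:48521558-48521857 (plus strand) for EBP. The element searched as TCACNCCAC on both strands was in 1 of 33 member windows (3.03%), that of SREBF2, against 1.13% of all 35116 windows of the table. The shorter CACNCCAC, which the stricter letters contain, was in 7 member windows (21.2%) of IDI1, SC5D, INSIG1, SREBF2, ABCA1 and SCD, against 5.87% of all. CCAAT was found in 21 member windows (63.6%) against 34.6%. The windows shown held 2 matches for HMGCS1, 4 for MSMO1 and none for PMVK. That of IDI1 held 3, of which a pair overlap on opposite strands. For HMGCS1 and IDI1 the window shown is the one with the most matches. Another window of HMGCS1 had 0, and the others of IDI1 had 2 and 0. EBP also had 3 matches. The GC box letters GGGCGG were in 30 member windows (90.9%) against 44.95%, and the E-box letters CACGTG in 6 (18.2%) against 7.26%. Some genes have several windows that overlap, and a match describes letters, not a bound site.

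All 7 mevalonate enzymes of the list were detected in both lines, and under every scaling tried their sum was higher in CHLA9, with 712 CPM against 486 in TC71 (log2 of TC71 over CHLA9 -0.55, interval -0.57 to -0.53). FDPS, which makes farnesyl diphosphate at the end of this part, was the most abundant, at 307 CPM in CHLA9 and 173 in TC71. ACAT2, which joins acetyl-CoA units at the start, had 110.0 CPM in CHLA9 (108 to 112) and 139 in TC71 (136 to 142), and was the 1 enzyme of the 7 that was higher in TC71. The kinases that phosphorylate mevalonate stood furthest apart. MVK, which adds the first phosphate, was at 12.6 CPM (12.04 to 13.1) in CHLA9 and 2.79 (2.38 to 3.26) in TC71, a log2 difference of -2.17 (-2.41 to -1.94). PMVK, which adds the next, was at 132 CPM in CHLA9 and 54.8 in TC71, a difference of -1.27 (-1.32 to -1.21). The remaining enzymes differed less. HMGCS1, which makes HMG-CoA, had 44.6 and 31.6 CPM in CHLA9 and TC71, IDI1, the isomerase of the isoprene units, had 98.1 and 77.6, and MVD, the decarboxylase before it, had 8.57 and 7.32.

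**Figure D1:**
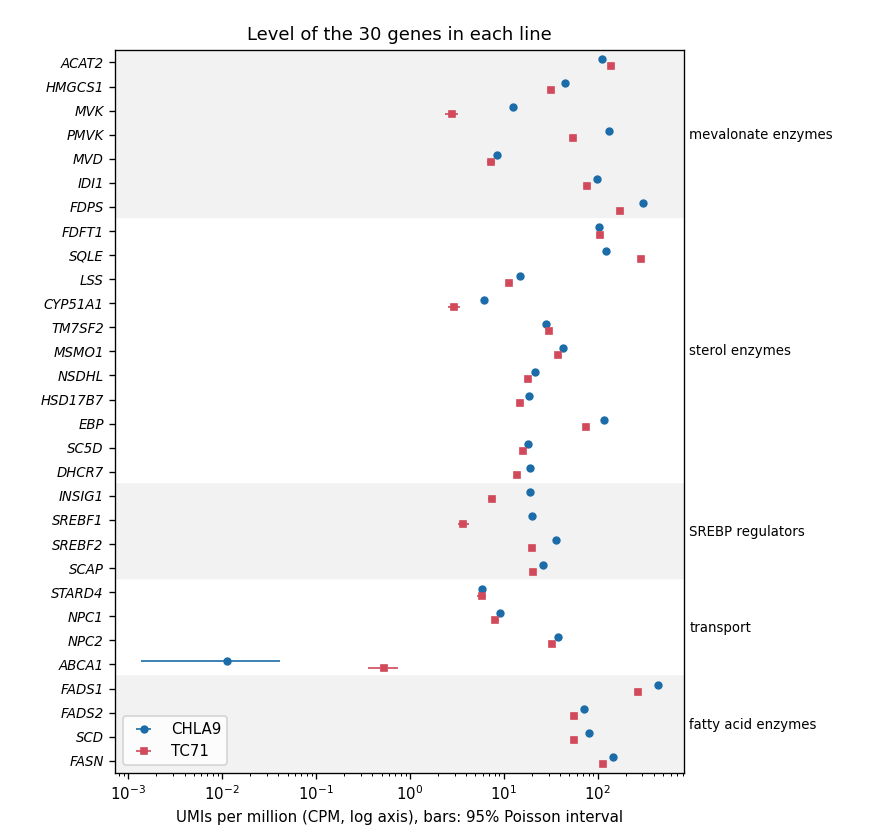
Level of each of the 30 genes in CPM (log axis) in CHLA9 (circles) and TC71 (squares), 1 library each, with bars for 95% Poisson intervals of the counts. FADS1 was highest in CHLA9 at 435 CPM and SQLE in TC71 at 291, while ABCA1 was lowest in both, at 0.0114 and 0.531.

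The sterol enzymes summed to 510.3 CPM in CHLA9 and 618 in TC71 (log2 0.28, 0.26 to 0.29), an excess in TC71 that held under every scaling tried and rested on a single gene. SQLE, the oxygenase that turns squalene into the epoxide from which the rings are closed, had 123 CPM in CHLA9 (122 to 125) and 291 in TC71 (287 to 296), a log2 difference of 1.24 (1.21 to 1.27). It was the most abundant of the 30 genes in TC71 and ranked 5 in CHLA9, and made up 47.2% of the sterol enzyme UMIs in TC71 against 24.2% in CHLA9. Without SQLE, a choice made after seeing the data, the other 10 sterol enzymes summed to 387 CPM in CHLA9 and 327 in TC71 (log2 -0.24, -0.27 to -0.22), and stayed lower in TC71 under every scaling tried. SQLE lies on chromosome 8 with FDFT1, the squalene synthase, which had nearly equal levels of 102 CPM in CHLA9 and 105 in TC71 (log2 0.04, 0.00 to 0.09). Among the 339 genes of chromosome 8 with at least 10 CPM in a line, the median log2 difference was 0.04, against -0.21 for all such genes. Among the 24 such genes within 5 Mb of SQLE it was 0.62, and 11 of them (45.8%) were at least 2-fold higher in TC71, against 16.2% of those on chromosome 8 and 8.8% of all such genes, while 4 (FBXO32, DERL1, FAM49B and ZHX1) were at least 2-fold higher in CHLA9; this stretch was chosen after the value of SQLE was seen. Copy number was not measured, and its part in the difference was not tested.

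Most later sterol enzymes were less abundant and lower in TC71, though MSMO1 and SC5D turned slightly higher there (log2 0.01 and 0.03) under scaling by the median of gene ratios, a step that sets the log2 shift of -0.18 in the median gene to 0. EBP, the isomerase that shifts the double bond of the B ring, was the exception in abundance, with 116 CPM in CHLA9 and 75.8 in TC71 (log2 -0.61, -0.66 to -0.56). LSS, which closes the rings, had 14.8 CPM in CHLA9 and 11.5 in TC71. CYP51A1, the demethylase that acts next, was the least abundant enzyme of the sterol part, with 6.12 CPM in CHLA9 and 2.95 in TC71. Enzymes that remove or reduce further groups came between: MSMO1, an oxidase of the methyl groups at carbon 4, had 42.7 CPM in CHLA9 and 37.9 in TC71. TM7SF2, a sterol reductase, was at 28.2 and 30.04 CPM in CHLA9 and TC71 and so slightly higher in TC71 (log2 0.09, 0.01 to 0.17). For the dehydrogenase NSDHL the levels were 21.7 CPM in CHLA9 and 18.2 in TC71, and for the ketoreductase HSD17B7 18.7 and 14.8. SC5D, the desaturase, had 17.9 CPM in CHLA9 and 16.1 in TC71, and DHCR7, a reductase at the end of the pathway, 18.9 and 13.9. Over the 18 enzymes of both parts the sum was 1222 CPM in CHLA9 and 1104 in TC71 (log2 -0.15, -0.16 to -0.13), a small difference whose sign turned (0.04) under that scaling.

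All 4 regulators were lower in TC71 under every scaling tried, with a sum of 101 CPM in CHLA9 and 51.8 in TC71 (log2 -0.97, -1.02 to -0.91). SREBF1, which encodes the SREBP proteins that act mainly on fatty acid genes, had 20.1 CPM in CHLA9 (19.4 to 20.8) and 3.70 in TC71 (3.22 to 4.23), a log2 difference of -2.44 (-2.65 to -2.24). INSIG1, the retention protein that is itself an SREBP target, had 18.9 CPM in CHLA9 and 7.42 in TC71 (log2 -1.35, -1.49 to -1.20). SREBF2, which encodes the factor that acts mainly on cholesterol genes, and SCAP, the escort, stood closer together in the lines. SREBF2 had 35.7 CPM in CHLA9 and 19.96 in TC71 (log2 -0.84), and SCAP had 26.5 and 20.7 (log2 -0.35). SREBF1 lies on chromosome 17, as does FASN, and the 583 genes of that chromosome with at least 10 CPM in a line had the lowest median of any chromosome, a log2 difference of -0.91, with 255 of them at least 2-fold higher in CHLA9. Chromosome 1, which holds PMVK, FDPS and HSD17B7, had a median of -0.59 over 971 genes. The part of position in these differences was not tested.

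Transport genes were weakly expressed, and their sum, most of it NPC2, differed little, with 52.6 CPM in CHLA9 and 47.0 in TC71 (log2 -0.16, and 0.02 when scaled by the median of gene ratios). NPC2, the soluble lysosomal carrier of cholesterol, had 37.7 CPM in CHLA9 and 32.5 in TC71. Its membrane partner NPC1 had 9.06 and 8.12 CPM, and STARD4, which carries cholesterol through the cytosol, had 5.83 and 5.81, a difference within counting error (log2 -0.00, -0.19 to 0.17). ABCA1, the pump that exports cholesterol and is switched on by sterol-activated LXR receptors, was close to the limit of detection, with 2 UMIs in CHLA9 and 31 in TC71. These are 0.0114 CPM (0.00138 to 0.0413) and 0.531 CPM (0.361 to 0.754), a log2 difference of 5.54 that the counts place anywhere between 3.56 and 8.65.

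The fatty acid enzymes were among the most abundant of the 30 genes, summing to 734 CPM in CHLA9 and 498 in TC71 (log2 -0.56, -0.58 to -0.54). FADS1, a desaturase of polyunsaturated fatty acids, had 435 CPM in CHLA9, the highest level of any member there, and 272 in TC71. FASN, which builds palmitate, had 147 and 114 CPM. FADS2, the desaturase that acts before FADS1, had 71.8 CPM in CHLA9 and 56.3 in TC71, and SCD, which makes oleate, had 80.3 and 56.1. All 4 were lower in TC71 under every scaling tried. In CPM the log2 differences ran from -0.35 in FADS2 to -0.68 in FADS1, and their size changed with the scaling.

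Across the 30 genes, 25 were higher in CHLA9 and 5 in TC71 (ACAT2, FDFT1, SQLE, TM7SF2 and ABCA1), counting differences of any size; under scaling by the median of gene ratios MSMO1, SC5D, STARD4 and NPC1 also turned higher in TC71. The median log2 difference of the members was -0.35, beside -0.21 (quartiles -0.73 and 0.32) for all 9258 genes with at least 10 CPM in a line. Of the 25 members with that level, 1, SQLE, was at least 2-fold higher in TC71, as were 8.8% of all such genes. In CHLA9 4 were at least 2-fold higher (MVK, PMVK, INSIG1 and SREBF1), and 16.3% of all such genes were. These shares lie near or below those over all genes and say nothing of the group as a whole. The 5 members below that level were MVD, CYP51A1, STARD4, NPC1 and ABCA1.

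**Figure D2:**
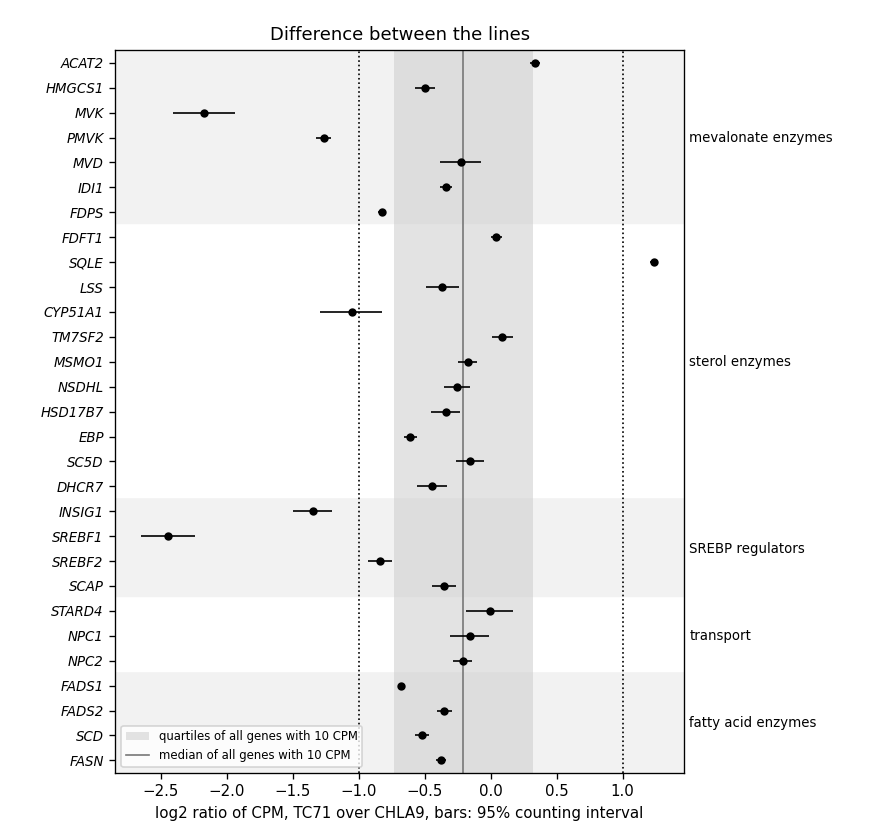
Log2 ratio of the CPM in TC71 over that in CHLA9 for 29 genes (ABCA1 left out), with bars for 95% counting intervals, dotted lines at 2-fold, and the median and quartiles of all genes with at least 10 CPM in a line in grey. SQLE at 1.24 lies past 2-fold on the side of TC71, and SREBF1 at -2.44 and MVK at -2.17 lie furthest on that of CHLA9; under scaling by the median of gene ratios MSMO1, SC5D, STARD4 and NPC1 change side.

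Other genes of lipid handling set the members beside their neighbours in the pathway. Of all genes with at least 10 CPM in a line, 8.8% were at least 2-fold higher in TC71 and 16.3% in CHLA9, and the counts of these short lists stand beside those shares. Among genes that act on proteins of the sterol-sensing machinery, the most abundant was RNF139, a ubiquitin ligase of the endoplasmic reticulum, with 26.3 CPM in CHLA9 and 66.4 in TC71; it is among the 24 genes within 5 Mb of SQLE. INSIG2, the paralogue of INSIG1, had 9.28 CPM in CHLA9 and 21.7 in TC71; it and the other genes of these lists that are not the most abundant are named after their values were seen. Of 12 genes that supply substrates and other lipids, 9 reached 10 CPM in a line, 1 (ELOVL6) was at least 2-fold higher in TC71 and 3 (ACLY, MMAB and TMEM97) in CHLA9, where ACLY, which makes cytosolic acetyl-CoA, had 183 CPM against 75.2 in TC71. Of 6 genes of LXR signalling, esterification and efflux 2 (NR1H2 and SOAT1) reached 10 CPM and neither differed by 2-fold; the most abundant, SOAT1, which esterifies cholesterol for storage, had 25.9 and 22.0 CPM. All 4 lysosomal genes reached that level, 2 of them (LIPA and OSBPL1A) at least 2-fold higher in TC71 and 1 (STARD3) in CHLA9, and SCARB2, a lysosomal membrane protein, led with 41.8 and 50.2 CPM.

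Whether cells with more of the first enzymes also had more of the last was asked within each library, after every cell had been thinned at random to 10000 UMIs. The summed UMIs of the 7 mevalonate enzymes and those of the 11 sterol enzymes rose together in CHLA9, with a Spearman's rho of 0.264 across 4510 cells, and less so in TC71, with a rho of 0.129 across 1670 cells. The cells of a line share a culture and a library, so that these values describe 1 culture each. Counts were sparse, with means of 12.2 and 11.05 enzyme UMIs per thinned cell in CHLA9 and TC71, and rho grew with depth, from 0.167 at 5000 UMIs to 0.412 at 20000 in CHLA9 and from 0.0732 to 0.203 in TC71. The variance of the summed enzymes was 1.96 times the sum of the genes' own variances in CHLA9 and 1.37 times in TC71, where genes that vary independently would give a ratio near 1. The ratio was 11.7 in CHLA9 and 9.46 in TC71 for 52 G2M genes of the cell cycle, with mean sums of 103 and 85.2 UMIs per thinned cell. For the 4 SREBP regulators it was 1.03 and 1.06, with mean sums of only 1.00 and 0.505 UMIs. The ratio depends on the number of genes and their counts, so these values do not rank the sets by co-variation. Between single enzymes rho was weak, with a median over pairs of 0.0455 in CHLA9 and 0.0197 in TC71. The summed enzymes were nearly unrelated to the depth of a cell before thinning (rho -0.0173 and 0.0403), to its mitochondrial share (-0.0300 and -0.0317) and to its S score (0.00350 and 0.0417) and G2M score (-0.0220 and -0.0487).

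The co-variation was carried by some enzymes and not by others. When each gene was set against the summed UMIs of the synthesis enzymes other than itself, 10 of the 19 members with a mean of at least 0.2 UMIs per thinned cell reached a rho of 0.1 in CHLA9, as did 0.228% of all 6591 genes with that mean. In TC71 3 of 16 did, beside 0.0843% of 5934 genes, a count that was 0 at 5000 UMIs, 6 at 20000 and 5 with another random draw at 10000. HMGCS1, IDI1 and MSMO1 reached it in both lines, and all carry CCAAT letters in the promoter windows shown, as does EBP, which did not reach it. HMGCS1 stood at 0.259 in CHLA9 and 0.179 in TC71. The other members at that limit in CHLA9 were SQLE (0.284), FDFT1, FDPS and ACAT2 among the enzymes, and FADS1 (0.231), SCD and FASN among the fatty acid genes, which are not in the sum. In TC71 these lay below it, SQLE at 0.0941 and FADS1 at 0.0547, but SQLE and FDFT1 passed it with the other random draw, so the limit does not part the lines for these genes. PMVK did not follow the other enzymes in either line (rho -0.00111 in CHLA9 and 0.00963 in TC71) although it is abundant, and EBP did so weakly in CHLA9 (0.0836) and not in TC71 (0.00751). Of the regulators, SREBF2 followed weakly at 0.0713 in CHLA9 and not in TC71 (0.00176), whereas INSIG1, with under 0.2 UMIs per thinned cell, had 0.2004 and 0.0687. Other members under that mean also passed 0.1 in CHLA9, namely the enzymes DHCR7 (0.164), MVK (0.131) and MVD (0.108) and the carrier STARD4 (0.104); in TC71 they lay between 0.00710 and 0.0637.

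**Figure D3:**
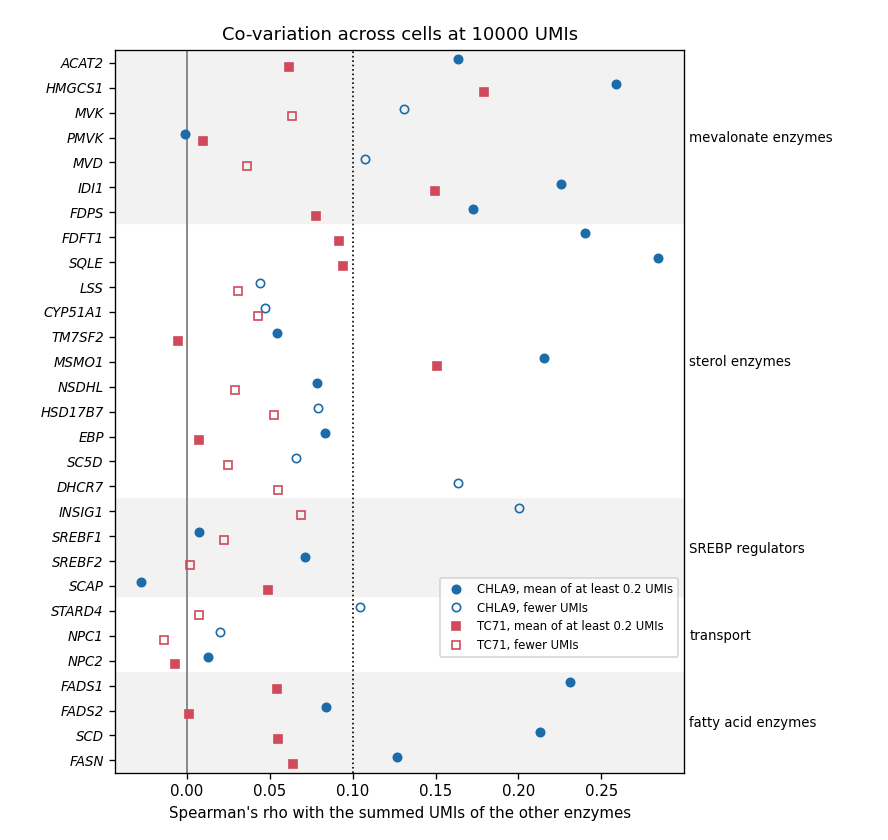
Spearman's rho of each of 29 genes with the summed UMIs of the other synthesis enzymes across 4510 cells of CHLA9 (circles) and 1670 of TC71 (squares), thinned to 10000 UMIs, with open marks for genes under a mean of 0.2 UMIs and a dotted line at 0.1. HMGCS1, IDI1 and MSMO1 lie past the line in both lines, and PMVK lies near 0.

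Sorting the cells by their summed enzymes into 5 bins of equal size shows the same in levels. In the lowest bin of CHLA9 cells HMGCS1, left out of its own sorting sum, had 22.2 CPM and in the highest 91.8, a 4.14-fold difference, and in TC71 it went from 17.4 to 49.4 CPM, or 2.84-fold. MSMO1 rose 3.77-fold from the lowest to the highest bin in CHLA9 and 2.16-fold in TC71, and INSIG1 3.99-fold and 2.50-fold. SQLE, so abundant in TC71, rose 2.74-fold in CHLA9 and 1.34-fold in TC71, from 262 to 350.0 CPM. It was left out of its own sorting sum, and held 1.20 of a mean of 12.2 enzyme UMIs in CHLA9 and 2.94 of 11.05 in TC71. Cells of TC71 were thus sorted on fewer UMIs for SQLE, and its folds in the lines are not on equal terms. PMVK stayed level, with 133 CPM in the lowest and the highest bin of CHLA9 cells and 52.4 and 54.2 CPM in those of TC71. Among genes outside the enzymes the median log2 difference between these bins was 0 in CHLA9 and 0.01 in TC71, and 95% of them lay under 0.19 and 0.31. The bins of CHLA9 held 902 cells each, with means of 6.01 and 20.6 enzyme UMIs in the lowest and the highest, and those of TC71 334 cells, with means of 5.77 and 17.5. Their median depth before thinning was alike, 34677 and 33906 UMIs in CHLA9 and 33266 and 34421 in TC71.

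**Figure D4:**
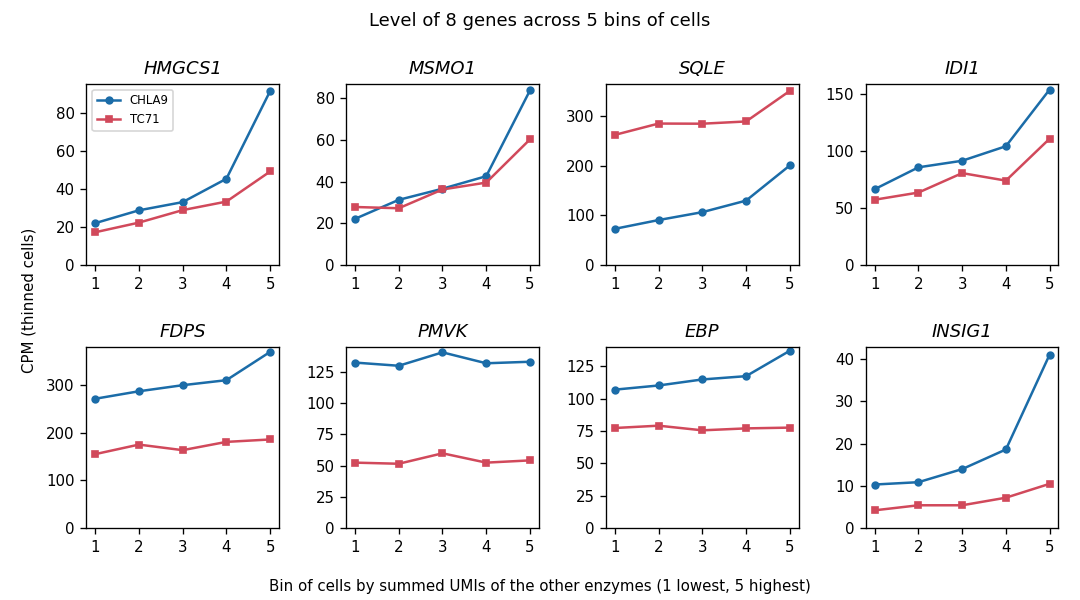
CPM of 8 genes in 5 bins of the cells of CHLA9 (circles) and TC71 (squares), sorted from 1 (lowest) to 5 (highest) by the summed UMIs of the synthesis enzymes other than the gene plotted, after thinning to 10000 UMIs. HMGCS1 rose from 22.2 to 91.8 CPM in CHLA9 and from 17.4 to 49.4 in TC71, while PMVK stayed between 130.0 and 141 and between 51.5 and 59.9.

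Genes outside the list whose counts went with the summed enzymes did so only weakly. Among 5374 genes with a mean of at least 0.2 UMIs in both lines, 10 of the 25 with the highest mean rho were members. Of those outside the list, the ones reported are SLC39A1 (mean rho 0.0751), a zinc transporter, VIM (0.0732), an intermediate filament protein, and HSPA8 (0.0696), a chaperone. DCPS (0.0668), CALR (0.0667), SDF2L1 (0.0658), SLC25A1 (0.0648) and PSMA7 (0.0631) followed, of which SLC25A1 exports citrate from mitochondria for lipid synthesis. The lowest were USP34 (-0.0584), RPL21 (-0.0587), TWIST1 (-0.0593), RAD21 (-0.0601) and EEF1A1 (-0.0784). At these sizes, in sparse counts of 1 library a line, the order of such genes is no finding.

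Cell cycle phase made little difference to the sum of all 18 enzymes. The sums of the mevalonate and sterol parts differed from each other, by more in TC71 than in CHLA9, but the sterol sum leans on SQLE. Cells were called G1, S or G2M from the expression of phase genes, giving 1023, 1731 and 1770 cells in CHLA9 and 216, 850 and 663 in TC71, and G2M cells were deeper than G1 cells (median 40896 against 29240 UMIs in CHLA9 and 37023 against 28483 in TC71). The 18 enzymes summed to 1205 CPM in CHLA9 cells in G1, 1250.0 in S and 1206 in G2M, a log2 difference of G1 over G2M of -0.00 (-0.02 to 0.02). In TC71 they summed to 1123, 1131 and 1069 CPM, a difference of 0.07 (0.03 to 0.11). There the mevalonate enzymes had 514 CPM in G1 against 452 in G2M (log2 0.19, 0.13 to 0.25), a difference that stayed above 0 under every alternative tried, while the sterol enzymes had 608 against 617 (log2 -0.02, -0.07 to 0.03). In CHLA9 the values were 0.03 (0.01 to 0.06) and -0.05 (-0.08 to -0.02), on opposite sides of 0. SQLE made up 24.2% of the sterol sum in CHLA9 and 47.2% in TC71, and was lower in G1 in both (log2 -0.28 and -0.19). Sums without SQLE were not compared between phases, so the contrast describes these sums and not the sterol enzymes at large. Few members passed a log2 difference of 0.32. In CHLA9 none of 25 members with at least 10 CPM was that much higher in G1, against 5.5% of all genes at that level, and 1 was higher in G2M, SREBF1, with 22.4 CPM against 16.4 in G1, against 13.8% of all. In TC71 3 of 22 were higher in G1, beside 3.01% of all genes, and none in G2M, beside 23% of all.

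The 3 were IDI1, EBP and TM7SF2. IDI1 had 88.1 CPM in G1 cells of TC71 and 67.0 in G2M cells (log2 0.39, 0.25 to 0.54), EBP had 89.9 and 69.6 (log2 0.37), and TM7SF2 had 35.7 and 28.3 (log2 0.33, 0.11 to 0.56). In CHLA9 the same genes differed by 0.09, -0.03 and 0.19. The TC71 count rests on 216 cells in G1 and was 0 when the phases were scored with all genes. SQLE went the other way and in both lines, in CHLA9 with 111 CPM in G1 and 135 in G2M (log2 -0.28, -0.33 to -0.22) and in TC71 with 264 and 300.5 CPM (log2 -0.19, -0.26 to -0.11). The fatty acid enzymes of CHLA9 had 768 CPM in G1 against 689 in G2M (log2 0.16), those of TC71 465 against 501 (log2 -0.11).

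**Figure D5:**
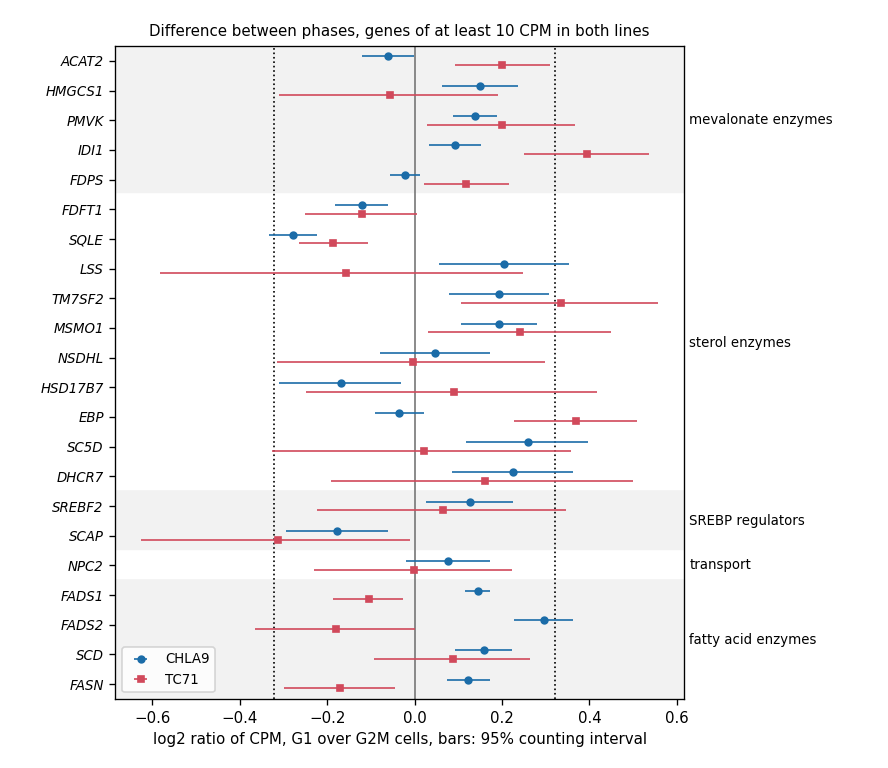
Log2 ratio of the CPM in G1 over that in G2M cells for the 22 members with at least 10 CPM in both lines, in CHLA9 (circles) and TC71 (squares), with bars for 95% counting intervals and dotted lines at 0.32 either side. IDI1 at 0.39, EBP at 0.37 and TM7SF2 at 0.33 lie past the line in TC71, and SQLE lies below 0 in both lines.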

How the data were processed

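Raw UMI counts per gene and barcode came from the authors, who made them by Cell Ranger 3.1.0 against hg38, and are used as deposited, with no normalization. A cell needed 5000 UMIs, 2000 genes and no more than 15% of UMIs from mitochondrial genes. Levels are summed UMIs of a line as CPM with exact Poisson intervals, and log2 ratios have exact Clopper-Pearson intervals. Across cells, counts were thinned to 10000 UMIs with a seed of 1, which left 4510 and 1670 cells. Each library was scored for phases on its own in R 4.3.3 by Seurat 5.3.0, on genes detected in at least 10 cells. Work was done with numpy 2.4.6, scipy 1.17.1, pandas 2.3.3 and matplotlib 3.10.9, and the steps were tested on simulated data. No test was made between lines or cells.

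Named are all members, the most abundant gene of each other list, and, outside the lists, the 5 genes lowest in mean rho and 8 of the 10 highest; the other 2, and some results of the other lists, are not reported here. Further genes that counts of 5 or fewer or the stretch near SQLE single out were named after their values were seen. The members and lists were chosen with earlier results of these data known. Chromosomes were read by gene identifier from GENCODE 44 (GRCh38) for all 30 members. Alternatives covered filters, doublets, scaling, depth, scores, cells and phase steps. The other cell line and the xenografts were not analysed here.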

Additional observations from a re-analysis of the deposited data

Results flagged for a closer look

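The lines went in opposite directions between phases for 3 members and 1 sum, beyond the counting error of each. As log2 of G1 over G2M, ACAT2 was at -0.060 in CHLA9 and 0.20 in TC71, FADS1 at 0.14 and -0.11, FASN at 0.12 and -0.17, and the summed fatty acid enzymes at 0.16 and -0.11. The median over all genes with at least 10 CPM was -0.029 in CHLA9 and -0.11 in TC71. FADS1 and the fatty acid sum of TC71 thus lay at the level of the median gene there. Whether the lines differ in this was not tested, and G1 of TC71 held 216 cells. The fatty acid sum of TC71 was -0.01 when cells were thinned before the phases were scored and -0.19 from thinned counts.

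Enzyme UMIs also appeared in barcodes that the comparisons did not use. Per 1000000 UMIs without mitochondrial ones, the 18 enzymes had 1197 in the 277 CHLA9 barcodes under 5000 UMIs and 1421 in the 181 over 15% mitochondrial UMIs, against 1323 in kept cells. In TC71 they had 1264 in 5869 barcodes under 5000 UMIs and 2021 in 601 over 15% mitochondrial UMIs, against 1215 in kept cells. The reason was not tested.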

How the results depend on the processing

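No paired analysis was possible because CHLA9 and TC71 had 1 library each, and no test was made. The log2 difference of the summed enzymes between the lines (-0.15) was 0.035 with the median of gene ratios, -0.059 with totals without mitochondrial and ribosomal protein genes, -0.16 as a mean share per cell and, chosen after seeing the data, -0.43 without SQLE; the first 3 follow from the scaling, the last from the gene left out. With no filter on low counts beyond 1 UMI, 2 members were 2-fold higher in TC71. The rho of early and late enzymes kept its sign throughout. In CHLA9 it was 0.167 at 5000 and 0.412 at 20000 UMIs, 0.222 without the most abundant gene of each part, 0.305 in G1 and 0.236 in G2M cells. In TC71 it was 0.0732 and 0.203 at those depths and 0.201 in G1 cells. The 3 members following the sum in TC71 became 0 at 5000 UMIs, 5 with at most 10% mitochondrial UMIs, with another seed, without the most abundant genes and in G1 cells, and 6 at 20000 UMIs and in S cells. Between phases, counts from thinned cells gave -0.019 for the enzyme sum in CHLA9, and 2 members higher in G2M in each line. In TC71, members higher in G1 were 0 with all genes scored and 1 with at most 10% mitochondrial UMIs, where 1 was higher in G2M. For all these the cause was not tested.

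Of 269 single-gene differences between the lines recomputed, 63 left their counting interval, 26 of them with the median of gene ratios, and no called one changed sign. Depth limits the weakly expressed genes most: ABCA1 had 2 UMIs in CHLA9, and reads of HSD17B7 or FDPS shared with similar pseudogene copies could not be checked in counts.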
